A study of Mus musculus with 2 samples.

Results

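Hcrt, Pmch and Cartpt, the genes of 3 hypothalamic neuropeptides, were followed among the 32285 genes counted in 2 coronal mouse brain sections, and all 3 were measured in both. The assay was 10x Visium, in which RNA from a tissue section is captured on an array of barcoded spots, each wider than a cell, and molecules are counted as unique molecular identifiers (UMIs). Each section came from 1 mouse (n = 2 mice, 1 section each), and the mice form a single group. Both expressed hM3Dq, an engineered receptor that responds to the drug CNO, and both were given CNO; the promoter driving hM3Dq, and the age and sex of the mice, were not found among the labels. Mouse 1 carries the genotype label of a C57BL/6J control and mouse 2 that of a CRISPR-Cas9 edited isogenic control. The sections were cut 10 µm thick at 1.9 mm posterior to bregma, anterior to an injection at 4.6 mm, from unperfused fresh-frozen brains whose lateral parts were trimmed away. No section without CNO was measured, so the comparisons are between areas, sides and mice, and none addresses CNO.

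Hcrt encodes the precursor of the orexins (hypocretins), peptides that maintain wakefulness and stimulate feeding, and it is made by a compact group of neurons in the lateral hypothalamus. Pmch encodes the precursor of melanin-concentrating hormone (MCH), which promotes feeding and rapid eye movement sleep and is made by other neurons of the same area and the adjoining zona incerta. Cartpt encodes the precursor of the cocaine- and amphetamine-regulated transcript (CART) peptides, which restrain feeding and are made in many brain areas, among them MCH neurons and the arcuate nucleus. Orexins act on the receptors Hcrtr1 and Hcrtr2, and MCH acts in mice on Mchr1.

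The 3 genes lie on different chromosomes of GRCm38.p6 (the RefSeq version of the mm10 build). Hcrt (ENSMUSG00000045471) spans chr11:100761693-100762931 on the minus strand and Cartpt (ENSMUSG00000021647) chr13:99898483-99910179 on the minus strand. Pmch (ENSMUSG00000035383) spans chr10:88091072-88092374 on the plus strand. Because the genes were high in the same part of the tissue, the 250 bases upstream of each RefSeq start are printed here, on the gene's own strand. The Hcrt window is chr11:100762932-100763181, the Pmch window chr10:88090822-88091071 and the Cartpt window chr13:99900684-99900933, which lies inside the annotated Cartpt span. Capitals mark matches, on either strand, to TATAA (the TATA box core), TGACGTCA (the cAMP response element) or TGACTCA (the AP-1 site).
Hcrt: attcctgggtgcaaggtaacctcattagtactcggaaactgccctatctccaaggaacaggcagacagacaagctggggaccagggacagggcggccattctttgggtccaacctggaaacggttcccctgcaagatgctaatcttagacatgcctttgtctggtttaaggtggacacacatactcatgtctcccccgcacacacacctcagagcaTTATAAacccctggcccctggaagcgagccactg
Pmch: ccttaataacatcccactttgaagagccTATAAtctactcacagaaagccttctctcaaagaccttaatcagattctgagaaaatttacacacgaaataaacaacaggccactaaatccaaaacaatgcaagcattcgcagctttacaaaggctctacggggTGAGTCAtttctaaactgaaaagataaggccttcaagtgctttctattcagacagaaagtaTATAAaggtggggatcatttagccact
Cartpt: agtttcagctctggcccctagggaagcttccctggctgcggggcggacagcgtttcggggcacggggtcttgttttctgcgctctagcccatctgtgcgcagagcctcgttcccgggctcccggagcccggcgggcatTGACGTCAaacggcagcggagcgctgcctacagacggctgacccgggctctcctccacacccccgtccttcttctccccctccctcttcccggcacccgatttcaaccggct

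The TATAA match nearest the start began 33 bases before it in Hcrt and 27 bases before it in Pmch. In Hcrt an opposite-strand match overlaps the first, which gives the capital run TTATAA. The Pmch window also held a second TATAA and an AP-1 match on the opposite strand, TGAGTCA, from 88 to 82 bases before the start. The Cartpt window held a cAMP response element match, from 112 to 105 bases before the start, and no TATAA. None of the 3 windows held CACGTG, the E-box also searched. Of 32851 RefSeq promoter windows of the same length, 22.8% held TATAA, 1.55% TGACGTCA, 4.46% TGACTCA and 6.02% CACGTG. The matches describe these letters and were not tied to the counts.

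Mouse 1 gave 30671753 UMIs over 3715 spots under tissue and mouse 2 gave 55315952 over 3549, with medians of 7547 and 14663 UMIs per spot. Spots with at least 500 UMIs, 3712 and 3548, were clustered with the 3 peptide genes and the listed genes left out, and clusters are called by their leading genes. Distances are given in spot pitches, the spacing between neighbouring spots. The hypothalamic-set regions are 3 clusters assigned by a set of 17 hypothalamic markers, none of them Hcrt, Pmch or Cartpt, and they held 475 spots in mouse 1 and 514 in mouse 2. The Dlk1-Gpx3 region (14 of 17 markers) held 322 and 294 of these spots, at medians of 7.90 and 6.54 pitches from the midline. The Hap1-Atp2b4 region (9 of 17), at the lateral ventral edges, held 95 and 220. It lay further out, at medians of 24.9 and 22.8 pitches, and counts as hypothalamic by these markers alone. The Lbhd2-Fezf1 region (11 of 17), at the ventral midline, held 58 spots in mouse 1 and none in mouse 2. All 17 markers were higher in the hypothalamic-set regions than in the rest of each section, with summed levels of 3592 and 3936 against 743 and 870 CPM (UMIs scaled to a total of 1e+06 per area). The regions were assigned by these same markers, so that direction was largely set in advance. A list of 8 markers of inhibitory neurons of cortex, amygdala and striatum was higher there in sum too, at 351 and 383 against 126.5 and 138 CPM, with 4 of 8 members higher.

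The peptide transcripts were concentrated in few spots of the ventral sections. Hcrt had 16410 UMIs in mouse 1 and 13519 in mouse 2, which placed it at rank 246 and 558 of all genes by total count. Its highest spot held 1224 Hcrt UMIs in mouse 1, or 4.80% of the 25499 UMIs counted there, and 1009 of 23471 UMIs, or 4.30%, in mouse 2. Of all Hcrt UMIs, 50% lay in 24 spots of mouse 1 and 18 spots of mouse 2.

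Pmch was the most counted of the 3, with 38524 and 77239 UMIs and rank 94 and 68 in mouse 1 and mouse 2. Its highest spots held 1578 Pmch UMIs, 9.60% of the UMIs of that spot, in mouse 1 and 2543, or 11.5%, in mouse 2. In these spots roughly 1 in every 10 molecules counted was the MCH precursor. Of all Pmch UMIs, 50% lay in 30 spots of mouse 1 and 39 spots of mouse 2.

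Cartpt was far sparser, with 2420 and 3064 UMIs, and more spread out. Its highest spot held 117 UMIs (0.824% of that spot) in mouse 1 and 176 (0.846%) in mouse 2, and 50% of its UMIs lay in 40 and 62 spots. The 50 leading spots held 66.0% and 69.6% of the Hcrt UMIs, 60.0% and 56.4% of the Pmch UMIs and 55.4% and 46.3% of the Cartpt UMIs. Of these 50 spots, 48 and 49 lay in the hypothalamic-set regions for Hcrt, 48 and 46 for Pmch and 45 and 44 for Cartpt.

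**Figure D1:**
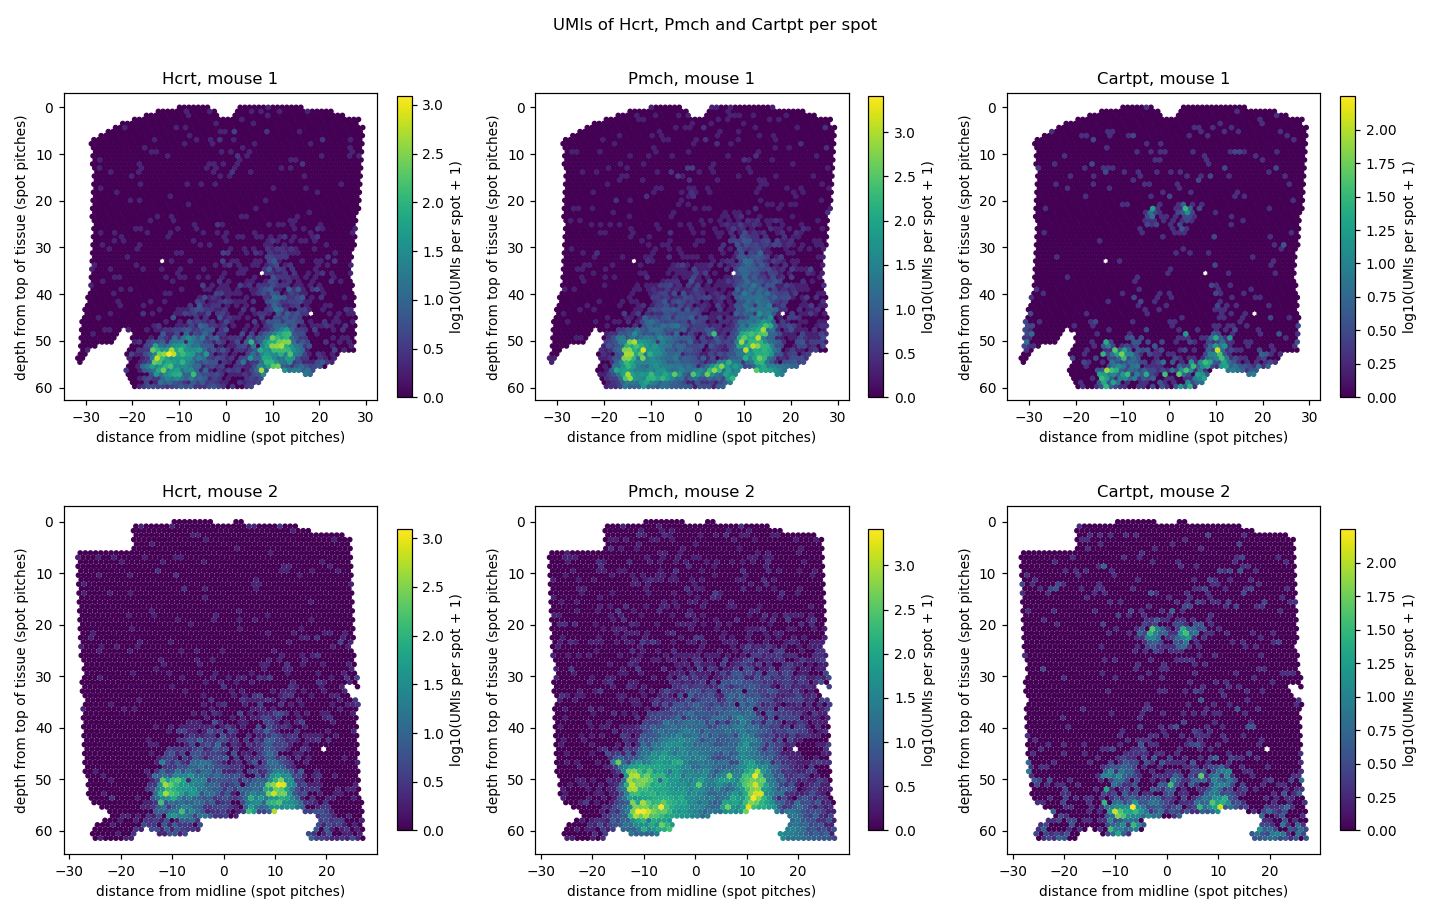
Maps of the 2 sections with 1 point per spot, the distance from the midline and the depth from the top of the tissue in spot pitches, coloured by log10(UMIs + 1), 1 column per gene and 1 row per mouse. Hcrt and Pmch form a pair of ventral groups on either side of the midline, and Cartpt has a further pair near the dorsal midline, at a depth of about 22.5 pitches.

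The hypothalamic-set regions were compared with the rest of each section to ask how far the peptide genes were restricted to them. All 3 genes were higher there, Hcrt 59.9-fold, Pmch 41.2-fold and Cartpt 26.1-fold in the fit, which placed them at positions 4, 9 and 27 of 15306 genes by fold change. The genes were chosen as hypothalamic peptides, so the direction was set by that choice. Over all genes, 20.4% passed as higher in these regions and 20.3% as lower, 40.7% together.

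Hcrt stood at 3828 CPM in the hypothalamic-set regions of mouse 1 and 1990 CPM in those of mouse 2, against 77.3 and 32.2 CPM in the rest. The values of the areas did not overlap. The log2 difference was 5.90 ± 0.22 (SE; adjusted p = 6.46e-152 in edgeR's quasi-likelihood test, Benjamini-Hochberg method), and both mice showed the direction. These regions held 87.3% of all Hcrt UMIs in mouse 1 (95% Clopper-Pearson interval 86.8 to 87.8) and 88.2% in mouse 2 (87.7 to 88.8). Such intervals, here and below, cover counting error only.

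Pmch stood at 8776 and 10414 CPM in the hypothalamic-set regions, against 211 and 300 CPM in the rest (log2 5.36 ± 0.30 SE, adjusted p = 1.55e-68 by edgeR). The areas were again far apart in both mice. They held 85.3% of the Pmch UMIs in mouse 1 (84.9 to 85.6) and 80.8% in mouse 2 (80.6 to 81.1). Cartpt stood at 526 and 356 CPM in the hypothalamic-set regions, against 16.7 and 18.8 CPM in the rest (log2 4.70 ± 0.12 SE, adjusted p = 6.55e-296 by edgeR). Its share in these regions was 81.4% (79.8 to 82.9) in mouse 1 and 69.7% (68.1 to 71.4) in mouse 2, with intervals that did not overlap.

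These fits used 4 libraries, 1 per mouse and area, with 1 residual degree of freedom, so the SE and p come mostly from a pooled estimate over genes, and the spread between the mice adds little to them. Without the mouse as a block the adjusted p values by edgeR were 0.00156 for Hcrt, 0.000342 for Pmch and 0.000282 for Cartpt, and 3706 genes in all passed instead of 6234. CPM give the part that a gene takes of all UMIs of an area, so fewer expressing cells and less RNA per cell cannot be told apart. Astrocyte, vessel and blood markers were counted in the same comparison, in which 20.4% of all genes were higher and 20.3% lower. Of 8 astrocyte genes, 2 were higher and 4 lower, with summed levels of 1033 and 1237 against 1483 and 1548 CPM. Of 6 vessel genes, 5 were lower, with summed levels of 95.1 and 143 against 176 and 180 CPM. No astrocyte or vessel marker was at 0 in either area. Of 5 blood genes, 1 was lower, with summed levels of 946 and 3189 against 1661 and 3273 CPM, and none was at 0. The part of these in the peptide result was not tested.

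Within the hypothalamic-set regions the genes differed in place. The Dlk1-Gpx3 region held Hcrt at 5478 CPM in mouse 1 and 3182 in mouse 2, while the Hap1-Atp2b4 region held 290.0 and 63.7 CPM. In the Lbhd2-Fezf1 region of mouse 1 Hcrt stood at 306 CPM and Pmch at 5544 CPM. Cartpt stood at 603 CPM there, near its mean of 546 ± 68.4 CPM in the Dlk1-Gpx3 region (SD, n = 2 mice). At the lateral edges, in the Hap1-Atp2b4 region, Cartpt stood at 171 CPM in mouse 1 and 128 CPM in mouse 2. Of these regions, Hcrt was thus highest in the Dlk1-Gpx3 region, while Cartpt was at a like level in the Dlk1-Gpx3 and Lbhd2-Fezf1 regions, the second measured by 58 spots of 1 mouse.

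Hcrt UMIs formed the tightest group. Their mean distance from the midline was 11.8 and 10.8 pitches on the image left and right of mouse 1, and 9.24 and 10.2 pitches in mouse 2. The SD over UMIs was 2.45 to 2.83 pitches across the 4 sides. Pmch UMIs lay at mean distances of 9.10 to 12.3 pitches with an SD of 2.87 to 4.04, and Cartpt UMIs at 8.66 to 11.3 pitches with an SD of 4.60 to 6.64. Cartpt UMIs were also deeper than Hcrt UMIs on all 4 sides, by mean depths of 54.3 to 55.8 pitches against 51.8 to 53.7 pitches from the top of the tissue. These are descriptions of where UMIs lay and have no test.

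The image left and right were compared within the hypothalamic-set regions, since the study describes ipsilateral staining after its injection; the labels do not say which image side was injected. None of the 3 genes passed edgeR's test or DESeq2's after adjustment. At an unadjusted p under 0.05, 2 of 3 did with edgeR, as did 707 of all 11619 genes tested. After adjustment 0.0172% of all genes passed as higher on the left and 0.103% as lower with edgeR. Hcrt stood at 4605 CPM on the left and 3142 CPM on the right of mouse 1, but at 1500 CPM on the left and 2474 CPM on the right of mouse 2. The mice thus ran in opposite directions, and the log2 difference of left over right was -0.04 ± 0.16 SE (adjusted p = 0.983 by edgeR). Pmch stood at 9524 and 12728 CPM on the left of the 2 mice, against 8117 and 8127 CPM on the right (log2 0.48 ± 0.12 SE, adjusted p = 0.235 by edgeR). Cartpt stood at 566 and 413 CPM on the left, against 491 and 300.5 CPM on the right (log2 0.37 ± 0.08 SE, adjusted p = 0.115). Both were higher on the left in both mice and did not pass in this fit. They passed, with adjusted p values of 8.73e-05 for Pmch and 0.0115 for Cartpt, when no filter on low counts was used, and also with the midline at the middle of the tissue.

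The mice differed most in Hcrt. In the hypothalamic-set regions mouse 2 held 0.520 times the Hcrt CPM of mouse 1 (95% Poisson interval 0.507 to 0.533), 1.19 times the Pmch CPM (1.17 to 1.20) and 0.677 times the Cartpt CPM (0.637 to 0.720). Among 2619 genes with at least 200 UMIs in these regions of each mouse, 0.84% had a ratio at least as far from 1, on the log scale, as Hcrt, 37.7% as Pmch and 6.30% as Cartpt. With 1 section per mouse there is no test of this difference. The regions themselves differed between the mice: Oxt, the oxytocin gene, had 7 UMIs in those of mouse 2 and 2059 in those of mouse 1, Qrfp, a peptide gene related to feeding, had 0 and 24, and the Lbhd2-Fezf1 region was found in mouse 1 alone. Genotype label, section plane and library cannot be told apart here.

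Spots of the hypothalamic-set regions were then examined for overlap between the genes. A spot can hold several cells, so shared spots do not show shared cells. Of the spots with at least 1 Hcrt UMI, 98.1% in mouse 1 and 97.4% in mouse 2 also held Pmch, and of the spots without Hcrt, 63.6% and 54.3% held Pmch. Read the other way, 85.4% and 79.3% of Pmch spots held Hcrt. Nearly all Hcrt spots were therefore Pmch spots at this depth, as were most spots of these regions, of which 90.9% and 83.7% held Pmch.

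Cartpt was counted in fewer of these spots. Of Cartpt spots, 94.4% and 88.5% held Pmch, while 62.7% and 71.6% of Pmch spots held Cartpt, against 37.2% and 47.6% of spots without Pmch. After thinning, as below, these became 61.1% and 55.0% of Pmch spots and 59.1% and 26.8% of spots without Pmch, so that in mouse 1 they were close. Of Hcrt spots, 67.0% and 76.3% held Cartpt, against 35.4% and 49.4% of spots without Hcrt, and 87.8% and 76.7% of Cartpt spots held Hcrt. With each spot thinned to 5000 UMIs, which left out 129 shallower spots in mouse 1 and 13 in mouse 2, the share of Hcrt spots with Pmch was 98.9% and 96.9%, and that of Hcrt spots with Cartpt was 64.1% and 58.8%. In thinned spots without Hcrt these shares were 72.9% and 50.2% for Pmch and 48.6% and 34.3% for Cartpt. At a minimum of 5 UMIs of each gene, 94.5% and 100% of Hcrt spots held Pmch, against 45.5% and 47.4% of spots below that minimum for Hcrt. Likewise 30.5% and 38.0% of Hcrt spots held Cartpt, against 10.6% and 9.15%.

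The spots with the highest counts were compared as lists of 50, which are smaller than the lists above and not to be set against them. Of the 50 leading Hcrt spots and the 50 leading Pmch spots, 18 were common in each mouse, which is 36% of each list. The leading Hcrt spots held a median of 128 and 105 Hcrt UMIs and of 106 and 230 Pmch UMIs, and 35 and 14 of them held more Hcrt than Pmch UMIs. Pmch and Cartpt shared 19 leading spots in mouse 1 and 21 in mouse 2, and Hcrt and Cartpt shared 13 and 9. Leading spots of the different genes nonetheless lay side by side: the median distance from a leading spot of the first gene to the nearest of the second was 1 pitch for Hcrt and Pmch in both mice.

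Single spots show how far the counts could part. A leading Hcrt spot of mouse 1 held 604 Hcrt, 19 Pmch and 19 Cartpt UMIs, and the spot first in Pmch of mouse 2 held 8 Hcrt, 2543 Pmch and 15 Cartpt UMIs. Others held both peptides at high counts, such as the spot second in Hcrt of mouse 2, with 849 Hcrt and 1502 Pmch UMIs. The highest Cartpt spot of each mouse was also a high Pmch spot, with 1179 Pmch UMIs in mouse 1 and 2227 in mouse 2, against 126 and 17 Hcrt UMIs. Over spots of these regions Pearson's r of log counts scaled to the spot total was 0.62 and 0.75 for Hcrt and Pmch, 0.37 and 0.48 for Pmch and Cartpt and 0.26 and 0.29 for Hcrt and Cartpt (475 and 514 spots, which share libraries and depth, so no p is given).

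**Figure D2:**
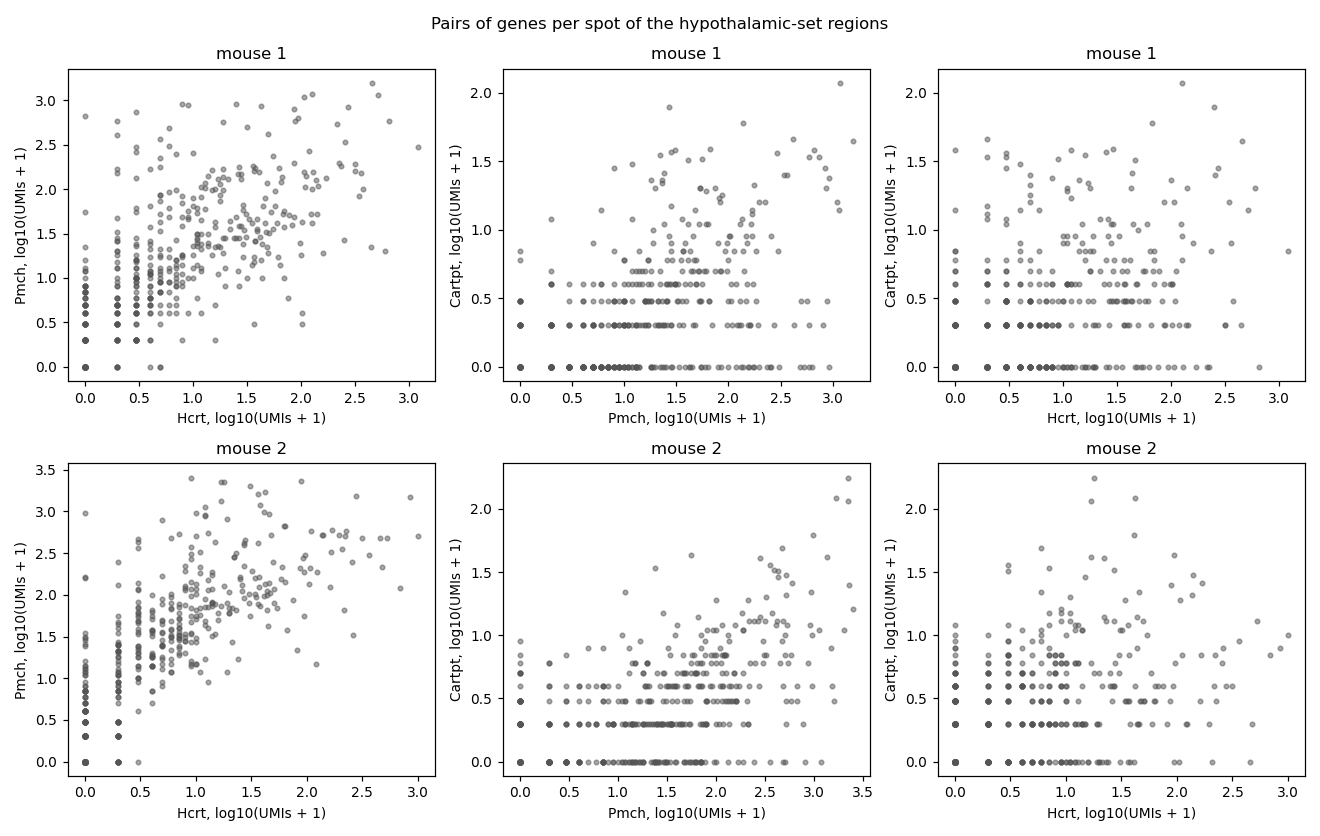
Counts of 2 genes per spot, as log10(UMIs + 1) on both axes, for the hypothalamic-set spots of mouse 1 (top, 475 spots) and mouse 2 (bottom, 514 spots). Hcrt and Pmch increase together but many high-Pmch spots hold few Hcrt UMIs, and Cartpt is scattered against both.

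Outside the hypothalamic-set regions, Hcrt and Pmch declined with distance from them. In spots 1 pitch away Pmch stood at 2676 CPM in mouse 1 and 4058 CPM in mouse 2, at 7 to 10 pitches at 223 and 202 CPM, and beyond 20 pitches at 19.5 and 20.2 CPM. Hcrt stood at 1173 and 412 CPM at 1 pitch, 79.7 and 24.2 CPM at 7 to 10 pitches and 9.68 and 4.60 CPM beyond 20 pitches. Every step outward was lower for both genes in both mice. Distance was taken to the nearest spot of any hypothalamic-set region, including the lateral Hap1-Atp2b4 region. In that region Hcrt stood at 290 and 63.7 CPM and Pmch at 1065 and 417 CPM. The steps thus do not measure distance from the Dlk1-Gpx3 region alone. The ratio of Hcrt to Pmch UMIs was 0.251 to 0.496 across these distances in mouse 1 and 0.0946 to 0.228 in mouse 2, and was highest beyond 20 pitches in both. The spread of RNA between spots was not measured separately, and its part in these counts was not tested.

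**Figure D3:**
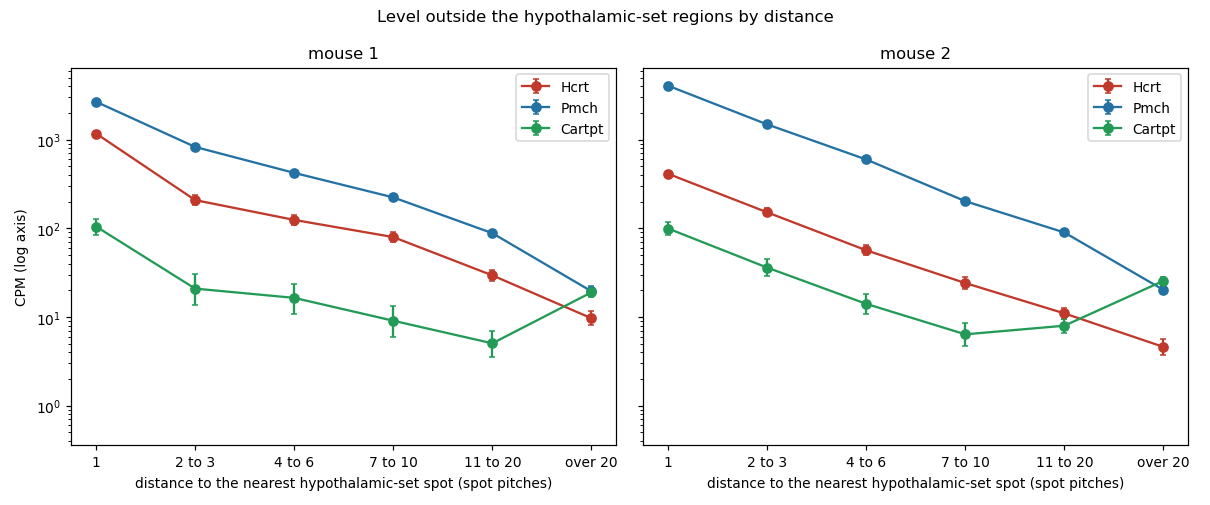
Level (CPM, log axis) of each gene in spots outside the hypothalamic-set regions against distance to the nearest hypothalamic-set spot (spot pitches), 1 panel per mouse, with 95% Poisson intervals as bars. Hcrt and Pmch fall at every step, and Cartpt is higher beyond 20 pitches (19.0 and 25.6 CPM) than at 7 to 10 pitches (9.08 and 6.38 CPM).

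Far from the hypothalamus, Hcrt and Pmch were found as scattered single UMIs. In the neocortical-set regions 10.9% and 6.25% of spots held an Hcrt UMI, and in the hippocampal regions 4.23% and 5.96%, at median depths of 9289 and 15562 against 5459 and 12725 UMIs per spot. Pmch was seen in 11.4% and 18.4% of neocortical-set spots and in 10.3% and 21.7% of hippocampal spots. After thinning to 5000 UMIs, Hcrt was seen in 6.34% and 1.89% of neocortical-set spots and Pmch in 6.31% and 6.14%. Neither gene is known for expression in these areas, so these shares serve as the level against which the others are set, and the source of these UMIs was not tested. No spot beyond 20 pitches and outside the habenula-set region held more than 3 Hcrt or 5 Pmch UMIs.

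Between these, a streak of both transcripts ran dorsally above the lateral hypothalamus, as the maps show, most clearly on the image right of mouse 1. In the thalamus-set regions of mouse 1 Hcrt stood at 44.5 CPM on the left and 94.8 CPM on the right, and Pmch at 126 and 295 CPM. In mouse 2 Hcrt stood at 26.0 CPM on the left and 37.4 CPM on the right, and Pmch at 255 and 299 CPM. Both genes were higher on the image right in both mice, a comparison chosen after the values were seen and not tested. The sides were not matched for distance to the hypothalamic-set regions, with which both genes declined.

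The Ptgds-Dcn region, with 8 of 8 markers of meninges and large vessels, held 518 Hcrt UMIs in mouse 1 and 28 in mouse 2. In mouse 1, 3 spots at the ventral edge, each 1 pitch from a hypothalamic-set spot, held 263, 204 and 39 of the 518. The first of them held 5 Pmch UMIs, the second 4 and the last 321, so Hcrt was with little Pmch in 2 of the 3 spots.

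**Figure D4:**
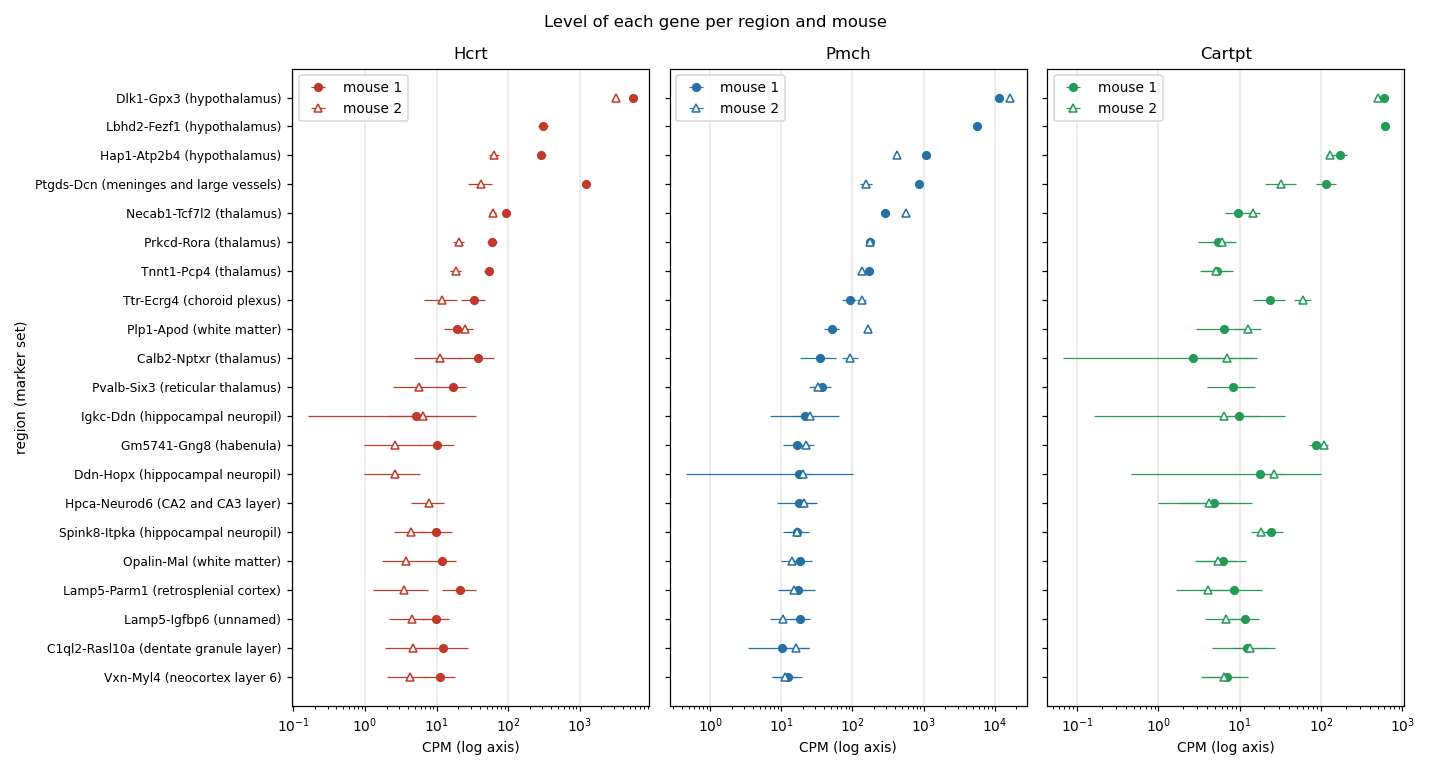
Level (CPM, log axis) of each gene in 21 regions, ordered by mean Pmch level, with filled circles for mouse 1, open triangles for mouse 2 and 95% Poisson intervals as bars; regions with 0 UMIs are not drawn. Cartpt in the habenula-set region (86.7 and 108 CPM) stands above its level in all regions ordered below the Ptgds-Dcn region.

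Cartpt had a second place of detection in the habenula-set region (Gm5741-Gng8, 6 of 6 habenular markers), near the dorsal midline. It stood there at 86.7 CPM in mouse 1 (118 UMIs, 95% Poisson interval 71.7 to 104) and 108 CPM in mouse 2 (244 UMIs, 95.02 to 123). Hcrt stood at 10.3 and 2.66 CPM and Pmch at 16.9 and 22.2 CPM in the same spots. Cartpt UMIs were thus 5.13 and 4.88 times as many as Pmch UMIs, the reverse of the order in the hypothalamic-set regions. The region was singled out after its values were seen, so no test is given.

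The habenular Cartpt came from few spots. In mouse 1, 5 spots with at least 5 Cartpt UMIs held 71 of the 118, and in mouse 2, 12 such spots held 199 of the 244. In those spots Hcrt had 0 and 1 UMIs and Pmch 0 and 1 UMIs. They lay on both image sides, 3 left and 2 right in mouse 1 and 6 left and 6 right in mouse 2, at 3.43 to 4.11 and 1.79 to 4.21 pitches from the midline. Both sides of both sections thus held a small Cartpt group.

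Elsewhere Cartpt was mostly lower. The Ttr-Ecrg4 region, with 7 of 7 choroid plexus markers, held it at 23.6 and 59.6 CPM. Its highest spot there held 4 Cartpt UMIs in mouse 1 and 14 in mouse 2. In the Ptgds-Dcn region Cartpt stood at 116 and 32.3 CPM. Beyond 20 pitches and outside the habenula-set region, 7 spots of mouse 2 held at least 5 Cartpt UMIs, and 0 of mouse 1. These 7 held 48 Cartpt UMIs and lay 1.85 to 5.68 pitches from the midline, at a median depth of 21.7 pitches. The habenular spots with at least 5 Cartpt UMIs in mouse 2 lay close by, at 1.79 to 4.21 and 22.5 pitches. Whether the 7 belong to the habenular group was not tested. Across the neocortical-set regions Cartpt stood at 7.44 and 5.41 CPM, against 17.5 and 20.0 CPM in the other regions outside the hypothalamic set. The log2 difference was -1.57 ± 0.21 SE (adjusted p = 1.43e-12 with edgeR), lower in both mice. Over all genes 18% passed as lower in this comparison and 17.9% as higher. The neocortical set is the Vxn-Myl4 and Lamp5-Parm1 regions (229 and 256 spots). The other regions include the habenula-set region and the spots 1 pitch from the hypothalamic set (Cartpt at 105 and 99.5 CPM in those spots). They also include the superficial Lamp5-Igfbp6 region, which no marker set named (374 and 177 spots, Cartpt at 9.21 ± 3.56 CPM, SD, n = 2). Some were near the neocortical level, such as Tnnt1-Pcp4 (5.30 and 5.04 CPM) and Prkcd-Rora (5.42 and 6.03 CPM), and others were above it. The difference thus does not hold against each region. Hcrt and Pmch were lower in the neocortical-set regions as well, at log2 values of -2.70 and -4.36. In the hippocampal Spink8-Itpka region Cartpt stood at 21.3 ± 4.55 CPM and in the C1ql2-Rasl10a region, which carries dentate granule markers, at 12.5 and 13.5 CPM. In the Hpca-Neurod6 region it stood at 4.48 ± 0.433 CPM (SD, n = 2). The Pvalb-Six3 region held 10 Cartpt UMIs in mouse 1 (8.36 CPM, 95% Poisson interval 4.01 to 15.4) and 0 in mouse 2, which allows up to 2.16 CPM at a limit of 3 counts.

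The receptors of these peptides were counted at a few CPM. Hcrtr1, the receptor that prefers orexin A, stood at 5.08 and 8.01 CPM in the hypothalamic-set regions, against 1.41 and 1.38 CPM in the rest (log2 2.37 ± 0.31 SE). Hcrtr2, which binds both orexins, stood at 4.81 and 2.67 CPM, against 0.891 and 1.12 CPM (log2 1.88 ± 0.40 SE). Both passed edgeR's test and rest on 16 to 68 UMIs per mouse and area. Mchr1, the MCH receptor, stood at 5.61 and 5.84 CPM, against 6.31 and 7.44 CPM in the rest, and did not pass (log2 -0.18 ± 0.23 SE, adjusted p = 0.571). The rest pools unlike areas. In the neocortical-set regions Hcrtr1 stood at 5.58 and 4.42 CPM, Hcrtr2 at 2.32 and 1.72 and Mchr1 at 9.30 and 11.6. These values rest on 5 to 47 UMIs per mouse. Hcrtr1 was thus not particular to the hypothalamic-set regions.

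Genes known from orexin neurons did not move as one. Of 4 tested, 1 was higher and 3 were lower, where 20.4% of all genes were higher and 20.3% lower. Their median log2 was -0.78, against -0.0033 over all genes. Pdyn, the precursor of dynorphins, which orexin neurons release with orexin, stood at 64.1 and 49.4 CPM in the hypothalamic-set regions, against 6.61 and 6.59 CPM (log2 3.18 ± 0.12 SE). Lhx9, a transcription factor of orexin neurons, fell by 1.32 on the log2 scale, Slc17a6, the vesicular glutamate transporter, by 1.01 and Nptx2, a synaptic pentraxin, by 0.54. These 3 are expressed by other neurons of the section too. Qrfp had 24 UMIs in the hypothalamic-set regions of mouse 1 and 1 UMI in the rest, and 0 in both areas of mouse 2, and was too low to be tested.

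Of 3 genes known from MCH neurons all were higher, against 20.4% of all genes, with a median log2 of 3.44 against -0.0033 over all genes. Tacr3, the neurokinin B receptor, stood at 10.95 and 17.2 CPM, against 1.26 and 1.54 CPM (log2 3.44 ± 0.24 SE). Gad1, a GABA-synthesising enzyme, was higher by a log2 value of 0.43 in the fit. Its levels were 206 and 278 CPM, against 203 and 185 CPM, so in mouse 1 the areas were close. Parpbp was higher by 4.84, but its annotated span (chr10:88091398-88146969, minus strand) overlaps Pmch by 977 bases on the opposite strand. Parpbp UMIs were 0.548% and 0.477% of the Pmch UMIs in the hypothalamic-set regions, and 0.635% and 0.723% in the rest. Within the hypothalamic-set regions they were 0.700% and 0.606% on the image left, against 0.390% and 0.278% on the right, and Parpbp passed as higher on the left (log2 1.52 ± 0.16 SE, adjusted p = 3.82e-06 by edgeR), where Pmch differed by 0.48 without passing. No source used here says whether the counting used strand, so Parpbp reads and antisense Pmch reads cannot be told apart.

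Of 18 other peptide genes tested, 14 were higher in the hypothalamic-set regions and 3 lower, with a median log2 of 2.0; of all genes 20.4% were higher and 20.3% lower. Gal, the galanin gene, stood at 159 and 102 CPM, against 4.90 and 3.14 CPM, and Nts, the neurotensin gene, at 237 and 155 CPM, against 6.61 and 6.89 CPM. Oxt was higher by a log2 value of 5.65 in the fit, a value carried by the 2059 UMIs of mouse 1. Cck, Vip and Npy, peptides also made by cortical interneurons, were lower, at log2 values of -2.29, -2.20 and -1.62. Of 12 genes for peptide processing and dense core vesicles, 8 were higher and 3 lower, with a median log2 of 0.50. Scg2, a granin, was higher by a log2 value of 2.15, Pcsk1, a prohormone convertase, by 1.71 and Pam, which amidates peptides, by 1.15, whereas Pcsk2, another convertase, fell by 0.76. Of 7 feeding-related receptors tested, 3 were higher, namely Mc3r (2.23), Mc4r (1.66) and Glp1r (1.84), and 1 was lower, Npy1r, by 0.68 on the log2 scale. The median log2 of these receptors was -0.03, near that of all genes, of which 40.7% passed in either direction.

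Likeness to each peptide gene was measured by Pearson's r of log-scaled counts over the spots of each section, among 13259 genes with at least 50 UMIs in each mouse, ranked by the lower of the values of both mice. The closest gene to Hcrt was Pmch (r = 0.78 in mouse 1 and 0.81 in mouse 2), followed by Dlk1 (0.57 and 0.57), Cartpt (0.51 and 0.50), Gpx3 (0.47 and 0.50) and 6330403K07Rik (0.48 and 0.47). Closest to Pmch were Hcrt, Cartpt (0.53 and 0.57), Dlk1 (0.51 and 0.56), Gpx3 (0.49 and 0.51) and Resp18 (0.48 and 0.54). Closest to Cartpt were Pmch, Hcrt, Gpx3 (0.42 and 0.45), Nts (0.49 and 0.42) and Dlk1 (0.42 and 0.44). Each of the 3 peptide genes therefore stood among the 5 genes most like each of the others. Spots of a section share a library and neighbouring tissue, so these values are descriptions with no p.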

How the data were processed

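The authors deposited UMI counts for every spot and gene as whole numbers. The file headers name Space Ranger 1.3.1, and the build was mm10 per the submitters' processing notes. No source used here gives the annotation version or counting settings. The 3 genes, the lists, the tests and the naming rule (the members, the receptors, up to 3 genes per list with the largest change, 5 genes of likest pattern) were chosen with earlier results of these data known.

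Spots were clustered with scanpy 1.11.5 in Python 3.11.15: 10000 UMIs per spot, log scale, 2000 variable genes, 30 principal components, 15 neighbours, Leiden resolution 1, with 73 listed genes left out. A cluster took the best of 18 marker sets with at least 3 markers among its 100 leading genes. Of 22 clusters, 1, counted with the rest of the section, is not reported here, nor is 1 alternative that used it. The midline was the line that best mirrored the clusters (70.93% and 83.53% of mirrored spots matched).

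UMIs were summed per mouse and area and tested with edgeR 4.0.16 under R 4.3.3, by quasi-likelihood with a mouse block, TMM scaling, filterByExpr and a Benjamini-Hochberg threshold of 0.05. Both areas of a pair come from the same mouse, which gives the pairing. The SE is the log2 value divided by the square root of the F statistic. Alternatives were DESeq2 1.42.0, no block, no filter, other size factors, other clusterings, a stricter spot minimum and each mouse alone. On simulated data with 15236 genes, the test of hypothalamic-set regions recovered 98 of 100 genes changed by log2 1 and made 14 false calls. The simulation gave every gene the same dispersion and no difference between the mice, so these rates need not hold for the real counts. Spots were not treated as replicates, and doublets do not apply to spots. Upstream sequences and gene positions are from RefSeq (GRCm38.p6), where all 3 genes matched by symbol.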

Additional observations from a re-analysis of the deposited data

How the results depend on the processing

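The log2 differences of Hcrt, Pmch and Cartpt between the hypothalamic-set regions and the rest kept their direction and passed under all 10 alternatives reported with a test, at 5.56 to 6.31, 4.69 to 5.94 and 4.34 to 4.77. Of these, leaving out the Hap1-Atp2b4 region was chosen after seeing the data. In mouse 2 and mouse 1 alone they were 5.95 and 5.63 for Hcrt, 5.12 and 5.38 for Pmch and 4.24 and 4.97 for Cartpt. Genes called in that comparison numbered 6234, against 3706 without the replicate block and 2727 with DESeq2, and in the neocortical comparison 5391, against 3331 and 1986. Cartpt there stayed lower and called under all 4 tested alternatives (-1.61 to -1.53, and -1.87 and -1.22 in mouse 2 and mouse 1 alone); Leiden resolution 0.5 gave no neocortical set and so no value.

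Between image sides, Hcrt was 0.18 without the replicate block, 0.067 with the midline at the middle of the tissue, and -0.72 and 0.55 in mouse 2 and mouse 1 alone, never past the threshold. Pmch passed at 0.47 with no filter and 0.56 with the middle line, and Cartpt at 0.37 and 0.41; alone, the mice gave 0.65 and 0.23 for Pmch and 0.46 and 0.20 for Cartpt. Genes called between sides numbered 14, against 0 without the block, 27 with no filter, 2 with DESeq2 and 22 with the middle line; without the block 183 genes had an unadjusted p under 0.05.

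The mean share of UMIs in the hypothalamic-set regions was 87.8% for Hcrt, 83.1% for Pmch and 75.6% for Cartpt. For Hcrt it was 90.7% at Leiden resolution 2, 89.6% with each section clustered alone, 80.8% by marker scores, 92.2% with at least 1000 UMIs per spot and 86.7% without the Hap1-Atp2b4 region. For Pmch it was 88.2%, 86.4%, 70.0% and 91.5% under the first 4 of these. For Cartpt it was 64.8% by marker scores and 68.6% without the Hap1-Atp2b4 region (77.1% in mouse 1 and 60.2% in mouse 2). The mean share of Hcrt spots with Pmch was 97.3% at a minimum of 5 UMIs. That of Pmch spots with Cartpt was 51.2% at 2 UMIs, 28.1% at 5 and 58.1% after thinning, and that of Hcrt spots with Cartpt 57.3%, 34.2% and 61.5%. The causes of these changes were not tested. With 1 section per mouse, the spread between mice rests on 2 values.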
